A study of Mus musculus with 9 samples.

Results

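The solute carrier (Slc) genes were described across 3 related mouse stem cell types, named ABSC, ALSC and AFSC, each measured in 3 RNA sequencing libraries. Members were the protein-coding genes whose symbol starts with Slc and a digit, except 1 gene that is not reported here, and that reached 1 CPM (reads of the gene per 1000000 counted, scaled to library size) in at least 3 of the 9 libraries. Of 370 such genes in the deposited table of 54878 entries, 234 met this level and 136 did not, 18 of them with 0 counts in every library. Members were thus chosen by their level, so the fact that they are expressed is not a result. None of the 234 reached 1 CPM in every library of 1 cell type and in no library of the others, and 207 reached it in all 9 libraries. Just inside the threshold, the third-highest library value was 1.03 CPM for Slc41a2, 1.08 CPM for Slc22a15 and 1.08 CPM for Slc41a3, and just outside it was 0.979 CPM for Slc6a7, 0.948 CPM for Slc8a1 and 0.927 CPM for Slc2a12. By substrate, 31 members were assigned to amino acids, 15 to glucose and lactate, 26 to zinc and iron, 6 to nucleosides and 156 to other or undefined cargo.

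ABSC were labelled as resembling trophoblast stem cells, the progenitors of the placenta, and grew in Activin A and BMP4 at passages 25 to 30. ALSC carried no such likeness in their label and are taken to have grown in Activin A and LIF at passages 20 to 25, although the protocol prints this recipe under the name AB. AFSC, likened in their label to EpiSCs (epiblast stem cells, pluripotent cells of the implanted embryo), were grown out of blastocysts with Activin A plus bFGF and used at passages 15 to 20. ABSC and ALSC were both made from AFSC by over 5 passages in the new medium. All cells came from the strain Sv129 x GOF/GFP F1 and shared a DMEM/F12 base with glutamine, nonessential amino acids, N2 and B27, so the nutrient supply named in the protocol was the same. Passage, medium and cell type cannot be told apart, nor can a second RNA kit that the protocol names for ALSC. Nothing says that the 3 libraries of a cell type came from separate cultures, so p-values measure the spread between these libraries, which may be technical. Of the trophoblast markers, Hand1 was at 188 to 244 CPM in ABSC, against at most 2.53 CPM in ALSC and 0.376 CPM in AFSC, whereas Gata3 stayed at or under 1.1 CPM and Elf5 at or under 0.329 CPM in all libraries. Of the 8 trophoblast markers listed, 6 were tested, and 3 of them (Hand1, Cdx2 and Krt8) were called higher and 0 lower in ABSC against AFSC. In ALSC against AFSC 2 were called higher (Hand1 and Tfap2c) and 1 lower (Krt8). Tfap2c was highest in ALSC, at 15.7 to 20.8 CPM, against 2.9 to 12.2 CPM in ABSC and 2.22 to 5.39 CPM in AFSC. Eomes and Esrrb were called in no comparison. Of the 8 epiblast markers, 2 were called higher and 5 lower in ABSC against AFSC, and 1 higher and 3 lower in ALSC against AFSC. Over all genes tested, 3.98% were called higher and 4% lower in the first comparison, and 3.54% and 3.5% in the second. Pou5f1 was above 900 CPM in all 9 libraries, while Fgf5 was at 13.5 to 18.3 CPM in ABSC, 120 to 166 CPM in ALSC and 184 to 193 CPM in AFSC. Total counts ran from 18978651 to 21578737 per library, so that 3 counts, taken as the lowest level that could be told from 0, equal 0.138 to 0.157 CPM and cover counting error only.

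Solute carriers are membrane proteins that move small molecules down a gradient or against it by coupling to another ion. Facilitative Slc2 proteins carry glucose, Slc16 proteins carry lactate with a proton, Slc7 proteins exchange amino acids, mostly as partners of the heavy chain Slc3a2, and Slc39 and Slc30 proteins bring zinc into and out of the cytosol. Early embryonic cells are known for high glucose uptake and lactate release, and trophoblast carries nutrients from mother to fetus. The symbol is not proof of transport: Slc9a3r1, for example, encodes the scaffold protein NHERF1.

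Per kilobase of deposited gene length, the members with the highest mean level over 9 libraries included mitochondrial carriers and glucose transporters. Slc25a5, the ADP/ATP exchanger of the inner mitochondrial membrane, stood at 405 CPM per kilobase, followed by the scaffold gene Slc9a3r1 at 136, the glucose transporters Slc2a1 at 129 and Slc2a3 at 119, and the mitochondrial phosphate carrier Slc25a3 at 108. Among the lowest were Slc22a15 at 0.0577, Slc7a14 at 0.106, Slc24a1 at 0.144 and Slc41a2 at 0.15. The median was 5.42 CPM per kilobase for glucose and lactate members, 4.56 for zinc and iron, 3.42 for nucleoside, 3.08 for amino acid and 3.59 for other members, against 3.65 for all 234. Slc25a5 has a processed copy in the genome, and its count may include or lose reads of that copy.

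**Figure D1:**
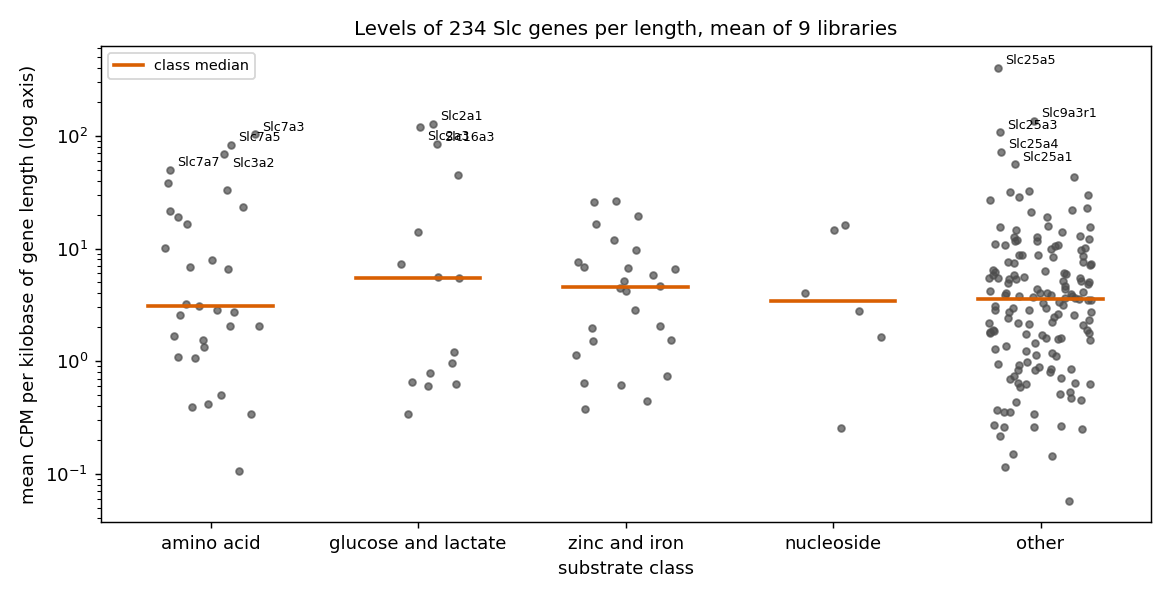
Mean level over 9 libraries of each of the 234 members, in CPM per kilobase of gene length on a log axis, by substrate class; the orange line is the class median and the 12 highest members are named. The class medians lie between 3.08 and 5.42 and the members span from 0.0577 to 405.

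Tests were run over all 16178 genes with sufficient counts by edgeR's quasi-likelihood F test with Benjamini-Hochberg adjustment, all 234 members included, and a change was called at an adjusted p under 0.05. In ABSC against AFSC, 28 members were called (12%), beside 7.98% of all genes tested. Of these, 10 were higher (3.98% of all genes were called higher) and 18 were lower (4% of all genes). In ALSC against AFSC, 24 members were called (10.3%), beside 7.04% of all genes. The calls were 12 higher and 12 lower, where 3.54% of all genes were called higher and 3.5% lower. In ABSC against ALSC, 38 members were called (16.2%), beside 11% of all genes. The calls were 16 higher (5.41% of all genes) and 22 lower (5.56% of all genes). Any difference among the 3 cell types was called in 49 members (20.9%), beside 14.8% of all genes. The first and second comparison share the AFSC libraries.

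The median log2 fold change of the members was -0.04 in ABSC against AFSC, 0.00 in ALSC against AFSC and -0.06 in ABSC against ALSC, beside 0.00, 0.00 and -0.01 over all genes tested, so the family as a whole sat near the middle of all genes. Called changes of 2-fold or more numbered 13 in ABSC against AFSC, 1 higher and 12 lower, where 3.31% of all genes made such a change, 1.32% higher and 1.99% lower. In ALSC against AFSC they were 7, 4 higher and 3 lower (2.29% of all genes, 1.38% higher and 0.902% lower), and in ABSC against ALSC 13, 2 higher and 11 lower (4.23% of all genes, 1.38% higher and 2.85% lower). Calls of that size over all genes were also more often lower in both ABSC comparisons. The counts depend on single libraries, for members and for all genes. In ABSC against AFSC, 16 members were called without ABSC 2, 18 without ABSC 3, 17 without AFSC 2 and 16 without AFSC 3, beside 4.03% to 4.5% of all genes in these fits. In ALSC against AFSC, 6 were called without AFSC 2, 6 without AFSC 3, 13 without ALSC 2, 12 without ALSC 3 and 13 without ABSC 2, beside 2.08% to 5.09% of all genes. In ABSC against ALSC, 22 were called without ABSC 2 and 24 without ABSC 3, beside 5.09% to 5.78% of all genes. For any difference, 32 were called without ABSC 2 and 30 without AFSC 2, beside 8.39% to 8.67% of all genes.

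The libraries numbered 1 stood apart in all 3 cell types. With the replicate number as a block, 64 members were called in ABSC against AFSC (19.4% of all genes called), 64 in ALSC against AFSC (22.2%), 90 in ABSC against ALSC (28.5%) and 111 for any difference (37%). Without the 3 libraries numbered 1, the counts were 90 in ABSC against AFSC (28.5% of all genes), 83 in ALSC against AFSC (25.4%), 106 in ABSC against ALSC (32.2%) and 137 for any difference (43.9%).

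**Figure D2:**
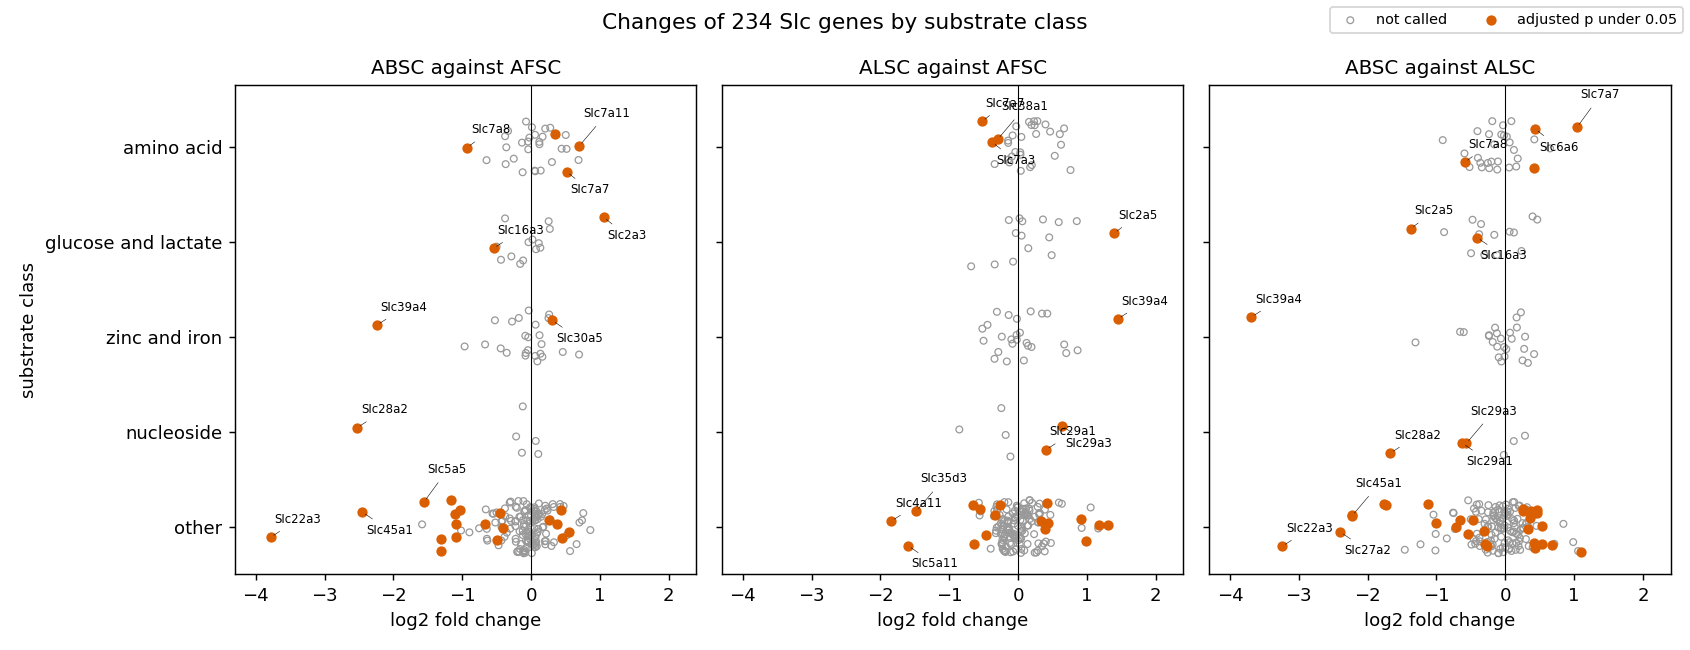
Log2 fold change of each of the 234 members by substrate class in the 3 comparisons; filled points passed an adjusted p of 0.05 and open points did not, and vertical scatter within a class has no meaning. Up to 3 called members with the largest change per class are named; Slc39a4 reaches -3.69 in ABSC against ALSC.

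Among the 31 amino acid transporters, 3 were called higher and 1 lower in ABSC against AFSC, 0 higher and 3 lower in ALSC against AFSC, and 3 higher and 1 lower in ABSC against ALSC. These were 12.9%, 9.68% and 12.9% of the class in that order, beside 7.98%, 7.04% and 11% of all genes. Slc7a7 (y+LAT1, which exchanges cationic for neutral amino acids; chr14:54369442-54417780, minus strand, GRCm38) had 226, 236 and 221 CPM in ABSC, 104, 117 and 110 CPM in ALSC, and 145, 170 and 163 CPM in AFSC. The 3 groups did not overlap, with ABSC highest and ALSC lowest. On the log2 scale the change was 0.52 ± 0.07 (SE) in ABSC against AFSC (adjusted p = 0.0018), -0.52 ± 0.07 in ALSC against AFSC (adjusted p = 0.0029) and 1.04 ± 0.07 in ABSC against ALSC (adjusted p = 2.2e-05). Slc7a7 overlaps Oxa1l, and the library kit does not mark strand, so reads in the overlap cannot be told apart. These 3 calls held in every alternative run, as did those of Slc6a6 below.

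Slc6a6, the taurine transporter, had 196, 194 and 178 CPM in ABSC, 148, 135 and 138 CPM in ALSC, and 151, 146 and 151 CPM in AFSC. All ABSC libraries lay above all others, with a log2 fold change of 0.34 ± 0.06 against AFSC (adjusted p = 0.0065) and 0.43 ± 0.06 against ALSC (adjusted p = 0.0016). Slc38a1, a sodium-coupled carrier of glutamine and other neutral amino acids, had 188, 209 and 192 CPM in ABSC, 138, 160 and 143 CPM in ALSC, and 166, 186 and 190 CPM in AFSC. The lowest values were in ALSC, and ABSC exceeded ALSC by 0.42 ± 0.08 on the log2 scale (adjusted p = 0.0077). Its fall of -0.30 ± 0.08 in ALSC against AFSC (adjusted p = 0.048) was lost without ABSC 2, ABSC 3, AFSC 2, AFSC 3, ALSC 1 or ALSC 3, at adjusted p between 0.0636 and 0.194.

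Slc7a8 (LAT2, a carrier of neutral amino acids that also pairs with Slc3a2) went the other way from Slc7a7 in ABSC, with 10.2, 8.26 and 7.69 CPM in ABSC, 13.3, 13.6 and 12.4 CPM in ALSC, and 13.9, 17.7 and 18.2 CPM in AFSC. The ABSC libraries were lowest and overlapped neither other group. The log2 fold change was -0.93 ± 0.15 in ABSC against AFSC (adjusted p = 0.0041) and held in every alternative run. In ABSC against ALSC it was -0.59 ± 0.15 (adjusted p = 0.033), and this call was lost without ABSC 2, ABSC 3, AFSC 2, AFSC 3 or any 1 ALSC library, at adjusted p between 0.0537 and 0.128. Slc7a11, the cystine/glutamate exchanger that feeds glutathione synthesis, had 5.75, 5.8 and 6.53 CPM in ABSC, 4.32, 4.49 and 4.69 CPM in ALSC, and 3.81, 3.78 and 3.52 CPM in AFSC. The order was ABSC, ALSC, AFSC with no overlap, and ABSC exceeded AFSC by 0.70 ± 0.15 on the log2 scale (adjusted p = 0.019), a call lost without ABSC 2, ABSC 3, AFSC 2 or AFSC 3 at adjusted p between 0.0594 and 0.0877. Slc7a3, a carrier of arginine and lysine, had 351, 395 and 392 CPM in ABSC, 303, 387 and 352 CPM in ALSC, and 473, 435 and 446 CPM in AFSC. All AFSC libraries were above the others, and ALSC differed from AFSC by -0.38 ± 0.09 (adjusted p = 0.03), a call lost without any 1 AFSC library or without ALSC 3, at adjusted p between 0.0789 and 0.102. The fall of Slc7a3 in ABSC against AFSC was called with the replicate block alone (adjusted p = 0.024, against 0.12 without it).

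The other key members of the class were not called in the fit of all libraries without the block. Slc7a1, the related cationic carrier, had 138, 111 and 99.7 CPM in ABSC, 99, 65.7 and 57.3 CPM in ALSC, and 76.9, 84.3 and 84.6 CPM in AFSC. Library 1 was the highest of ABSC and of ALSC, and the log2 difference of ABSC and ALSC was 0.65 ± 0.19 (adjusted p = 0.051), or 0.66 with the block (adjusted p = 0.046). It was also called with DESeq2 (adjusted p = 0.0078), with RLE factors (adjusted p = 0.0475), without ALSC 1 (0.92, adjusted p = 0.0024) and without the 3 libraries numbered 1 (adjusted p = 1.8e-09). The heavy chain Slc3a2 ranged over 233 to 289 CPM in ABSC, 218 to 280 CPM in ALSC and 223 to 242 CPM in AFSC. Its partner Slc7a5 (LAT1, which takes up leucine) ranged over 238 to 418, 263 to 433 and 269 to 342 CPM in ABSC, ALSC and AFSC in that order. The glutamine carriers Slc1a5 (145 to 200 CPM over all libraries) and Slc38a2 (253 to 325 CPM) overlapped between all 3 cell types.

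Of the 15 glucose and lactate members, 1 was called higher and 1 lower in ABSC against AFSC, 1 higher in ALSC against AFSC, and 2 lower in ABSC against ALSC. The called shares were 13.3%, 6.67% and 13.3% in that order, beside 7.98%, 7.04% and 11% of all genes. Slc2a3 (GLUT3, a high-affinity glucose transporter; chr6:122727809-122801640, minus strand) had 1131, 1213 and 1176 CPM in ABSC, 933, 842 and 776 CPM in ALSC, and 749, 477 and 469 CPM in AFSC. No groups overlapped; AFSC 1 stood well above the other AFSC libraries. The level averaged 1173 ± 41.4 CPM in ABSC and 565 ± 159 CPM in AFSC (SD, n = 3 each), a log2 fold change of 1.05 ± 0.16 (adjusted p = 0.0032). This was the sole called rise of 2-fold or more among all members in ABSC against AFSC, and it held in every alternative run. The values of 0.59 ± 0.16 in ALSC against AFSC (adjusted p = 0.055) and 0.46 ± 0.16 in ABSC against ALSC (adjusted p = 0.092) missed the threshold. Without AFSC 1 they were 0.84 (adjusted p = 0.0011) and 0.47 (adjusted p = 0.0036). Slc2a3 overlaps Gm4482.

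Slc2a1 (GLUT1, the widespread basal glucose transporter; chr4:119108711-119137983, plus strand) did not follow that order, with 475, 434 and 365 CPM in ABSC, 674, 486 and 466 CPM in ALSC, and 531, 326 and 304 CPM in AFSC. Library 1 was highest in each cell type, and the groups overlapped. The log2 difference of ALSC and AFSC was 0.49 ± 0.22 (adjusted p = 0.23), and 0.51 with the block (adjusted p = 0.0043). It was 0.78 without AFSC 1 (adjusted p = 0.032) and 0.30 without ALSC 1. In ABSC against ALSC the block also gave a call, at -0.34 (adjusted p = 0.024). Per kilobase, Slc2a3 stood at 162 CPM and Slc2a1 at 121 CPM in ABSC, at 117 and 155 CPM in ALSC, and at 78.0 and 110 CPM in AFSC, so Slc2a3 was the higher of the pair in ABSC alone. That order rests on the deposited gene lengths and was not tested.

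The promoters of Slc2a1 and of Slc2a8, an intracellular glucose transporter, are shown because both genes were higher in library 1 of every cell type. Each runs from 250 bases before to 50 after the annotated start (RefSeq, GRCm38.p6), and capitals mark ACGTG or GCGTG, the core of hypoxia response elements, on either strand. Slc2a1 lies at chr4:119108495-119108794 on the plus strand and Slc2a8 at chr2:32982034-32982333 on the minus strand, each printed 5′ to 3′ along its gene.
Slc2a1: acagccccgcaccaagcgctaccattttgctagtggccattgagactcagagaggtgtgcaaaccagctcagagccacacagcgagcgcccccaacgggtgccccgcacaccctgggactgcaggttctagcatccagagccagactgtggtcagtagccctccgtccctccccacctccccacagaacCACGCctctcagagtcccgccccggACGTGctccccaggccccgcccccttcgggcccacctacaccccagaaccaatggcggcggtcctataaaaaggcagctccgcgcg
Slc2a8: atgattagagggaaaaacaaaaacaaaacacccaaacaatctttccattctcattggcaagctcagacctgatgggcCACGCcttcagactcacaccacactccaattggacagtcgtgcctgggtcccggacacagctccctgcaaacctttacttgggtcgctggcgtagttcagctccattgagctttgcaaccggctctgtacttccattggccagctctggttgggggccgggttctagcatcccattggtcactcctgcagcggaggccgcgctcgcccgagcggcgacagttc
Slc2a1 holds 2 matches and Slc2a8 holds 1. Such a match occurs in 43.8% of all 32851 promoter windows of the same 300 bases and in 59.2% of the 238 windows of members, which cover 183 members. A match describes these letters and is not a binding site.

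Slc16a3 (MCT4, the lactate exporter of glycolytic cells; chr11:120948480-120960868, plus strand) had 392, 357 and 316 CPM in ABSC, 473, 485 and 456 CPM in ALSC, and 562, 505 and 487 CPM in AFSC. ABSC were lowest without overlap, opposite to Slc2a3. The fold change on the log2 scale was -0.54 ± 0.08 in ABSC against AFSC (adjusted p = 0.0029) and -0.41 ± 0.08 in ABSC against ALSC (adjusted p = 0.011). Slc16a1 (MCT1, the lactate carrier of most cells) had 199, 242 and 232 CPM in ABSC, 162, 203 and 207 CPM in ALSC, and 196, 181 and 186 CPM in AFSC. It was not called without the block, and the block gave adjusted p = 0.045 in ABSC against AFSC and 0.041 in ABSC against ALSC. Slc2a5 (GLUT5, the fructose transporter) was low throughout, at 1.72, 1.26 and 1.16 CPM in ABSC, 4.41, 3.24 and 3.11 CPM in ALSC, and 1.55, 1.37 and 1.17 CPM in AFSC. All ALSC libraries exceeded all others. ALSC rose by 1.39 ± 0.25 on the log2 scale against AFSC (adjusted p = 0.01), a call lost without AFSC 2 (adjusted p = 0.056) or AFSC 3 (adjusted p = 0.0615), and ABSC fell by 1.37 ± 0.25 against ALSC (adjusted p = 0.0068). The summed level of the 15 members was 2357, 2371 and 2213 CPM in ABSC, 2420, 2154 and 2038 CPM in ALSC, and 2186, 1612 and 1566 CPM in AFSC.

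Zinc and iron transporters held the member with the smallest adjusted p of all. Of the 26, 1 was called higher and 1 lower in ABSC against AFSC (7.69%, beside 7.98% of all genes), 1 higher in ALSC against AFSC (3.85%, beside 7.04%), and 1 lower in ABSC against ALSC (3.85%, beside 11%). With the block, 13 of the 26 were called for any difference, which is 50%, beside 47.4% of all 234 members and 37% of all genes. Slc39a4 (ZIP4, the zinc importer whose loss in humans causes acrodermatitis enteropathica; chr15:76612383-76617384, minus strand) had 2.85, 2.14 and 1.92 CPM in ABSC, 28.2, 31.8 and 29.4 CPM in ALSC, and 11.3, 11.1 and 10.4 CPM in AFSC. The 3 groups lay far apart with little spread inside each. The log2 fold change was -2.24 ± 0.15 in ABSC against AFSC (adjusted p = 2.5e-05), 1.45 ± 0.13 in ALSC against AFSC (adjusted p = 0.00033) and -3.69 ± 0.15 in ABSC against ALSC (adjusted p = 8.3e-07), and all 3 calls held in every alternative run. Slc30a5 (ZnT5, which loads zinc into the secretory pathway) was the other called member, at 96.7, 95.4 and 96.4 CPM in ABSC, 85.4, 84.8 and 87.2 CPM in ALSC, and 78.4, 76.7 and 78.1 CPM in AFSC. ABSC libraries lay above ALSC and ALSC above AFSC, and ABSC exceeded AFSC by 0.31 ± 0.05 (adjusted p = 0.0051). With the block, its rise in ABSC against ALSC was called too (adjusted p = 0.021).

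Some markers of endoderm were also lower in the ABSC comparisons. Of the 7 endoderm markers listed, 4 were tested. In ABSC against ALSC 0 were called higher and 4 lower, where 5.56% of all genes were called lower. In ABSC against AFSC 2 were called lower, Foxa2 and Sox17, where 4% of all genes were called lower. Gata4 was not called there, and Gata6 with the block alone (adjusted p = 0.0016). In ALSC against AFSC, where Slc39a4 rose, 0 were called in either direction without the block. With the block, Gata4 (1.58, adjusted p = 0.037) and Gata6 (0.96, adjusted p = 0.016) were called higher there, and Foxa2 and Sox17 were not called. The summed level of the 7 markers was 1.47 to 2.3 CPM in ABSC, 21.5 to 31.2 CPM in ALSC and 17.4 to 23.2 CPM in AFSC. Most of it was Foxa2 in ALSC and AFSC. In ABSC the mean of Foxa2 was 0.307 CPM, below Sox7 at 0.629 CPM and Gata6 at 0.469 CPM. Ttr was at 0 in all libraries and Afp at or under 0.152 CPM. Sox7, also not tested, had its highest value in ABSC. It was at 0.455 to 0.941 CPM there, 0.102 to 0.418 CPM in ALSC and 0.094 to 0.472 CPM in AFSC. Whether endoderm-like cells have a part in the Slc39a4 values was not tested. Fewer cells of a type and less RNA per cell cannot be told apart in these bulk libraries.

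Slc30a1 (ZnT1, which exports zinc from the cell and is a known target of the metal sensor MTF1; chr1:191906767-191913247, plus strand) followed the library number and not the cell type, with 18.8, 49.3 and 55.1 CPM in ABSC, 25, 45.4 and 51.6 CPM in ALSC, and 17.7, 46.9 and 47.2 CPM in AFSC. Library 1 was lowest in each cell type, by 1.41 to 1.47 on the log2 scale in ABSC and AFSC and by 0.95 in ALSC. No comparison of cell types was called. Its promoter (chr1:191906531-191906830, plus strand, RefSeq, GRCm38.p6) is shown with the core of metal response elements, TGCACNC or TGCGCNC on either strand, in capitals.
Slc30a1: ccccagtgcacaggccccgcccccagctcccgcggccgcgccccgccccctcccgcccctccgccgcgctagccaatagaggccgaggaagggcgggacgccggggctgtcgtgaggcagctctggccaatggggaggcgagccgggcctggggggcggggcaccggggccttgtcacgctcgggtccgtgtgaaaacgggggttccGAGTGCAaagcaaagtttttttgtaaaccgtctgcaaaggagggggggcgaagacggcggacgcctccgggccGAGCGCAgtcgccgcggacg
The window holds 2 matches, which begin 43 bases before and at base 30 after the start. The same letters occur in 25.7% of all windows and 35.7% of those of members, and share no bases with the hypoxia motifs above.

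No iron transporter was called without the block. Slc11a2 (DMT1, which moves iron out of endosomes) ranged over 38.4 to 48.1 CPM in ABSC, 38.9 to 44.8 CPM in ALSC and 38.6 to 51.4 CPM in AFSC. Slc25a37 (mitoferrin, which brings iron into mitochondria) ranged over 32.9 to 48, 34.7 to 49.9 and 37 to 54.9 CPM in ABSC, ALSC and AFSC in that order. Slc40a1 (ferroportin, the iron exporter) had 9.92, 18.3 and 16.2 CPM in ABSC, 8.68, 13.2 and 11.4 CPM in ALSC, and 13, 17.3 and 16.6 CPM in AFSC. It was called with the block alone, lower in ALSC against AFSC (adjusted p = 0.0042) and higher in ABSC against ALSC (adjusted p = 0.014). The zinc importer Slc39a10 had 184, 161 and 173 CPM in ABSC, 147, 139 and 139 CPM in ALSC, and 190, 143 and 144 CPM in AFSC, and was likewise called with the block alone in ABSC against ALSC (adjusted p = 0.0046).

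Of the 6 nucleoside transporters, 1 was called lower in ABSC against AFSC, 2 higher in ALSC against AFSC, and 3 lower in ABSC against ALSC. That is 16.7%, 33.3% and 50% of only 6 genes, beside 7.98%, 7.04% and 11% of all genes. Slc29a1 (ENT1, the main equilibrative carrier at the plasma membrane) had 56.6, 53.2 and 49.2 CPM in ABSC, 67.6, 90.7 and 86.6 CPM in ALSC, and 59.4, 64.6 and 60.8 CPM in AFSC. ALSC libraries were above all others, and ABSC differed from ALSC by -0.62 ± 0.11 (adjusted p = 0.0053), a call kept in every alternative run. The rise of 0.41 ± 0.11 in ALSC against AFSC (adjusted p = 0.05, just under the threshold before rounding) was lost in 7 of 9 fits that each left out 1 library, all but those without ABSC 1 or ALSC 1, at adjusted p between 0.0696 and 0.176. Slc28a2, a sodium-coupled carrier of purine nucleosides, was near the lowest countable level, at 0.442, 0.157 and 0.354 CPM in ABSC, 1.42, 0.835 and 0.815 CPM in ALSC, and 1.6, 1.7 and 2.3 CPM in AFSC. ABSC were lowest and AFSC highest, with a log2 fold change of -2.52 ± 0.40 in ABSC against AFSC (adjusted p = 0.0038). In ABSC against ALSC it was -1.67 ± 0.42 (adjusted p = 0.031), lost without ABSC 2, ABSC 3, AFSC 2 or ALSC 1 at adjusted p between 0.0536 and 0.112.

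Slc29a3 (ENT3, of lysosomes) had 8.79, 7.9 and 8.55 CPM in ABSC, 15.2, 11.1 and 11.1 CPM in ALSC, and 8.3, 8.31 and 7.47 CPM in AFSC. ALSC libraries were highest. The log2 fold change was 0.63 ± 0.15 in ALSC against AFSC (adjusted p = 0.035) and -0.57 ± 0.15 in ABSC against ALSC (adjusted p = 0.04). Both calls were lost on leaving out any 1 library other than ABSC 1, at adjusted p between 0.0539 and 0.149 for the first and between 0.0531 and 0.152 for the second.

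**Figure D3:**
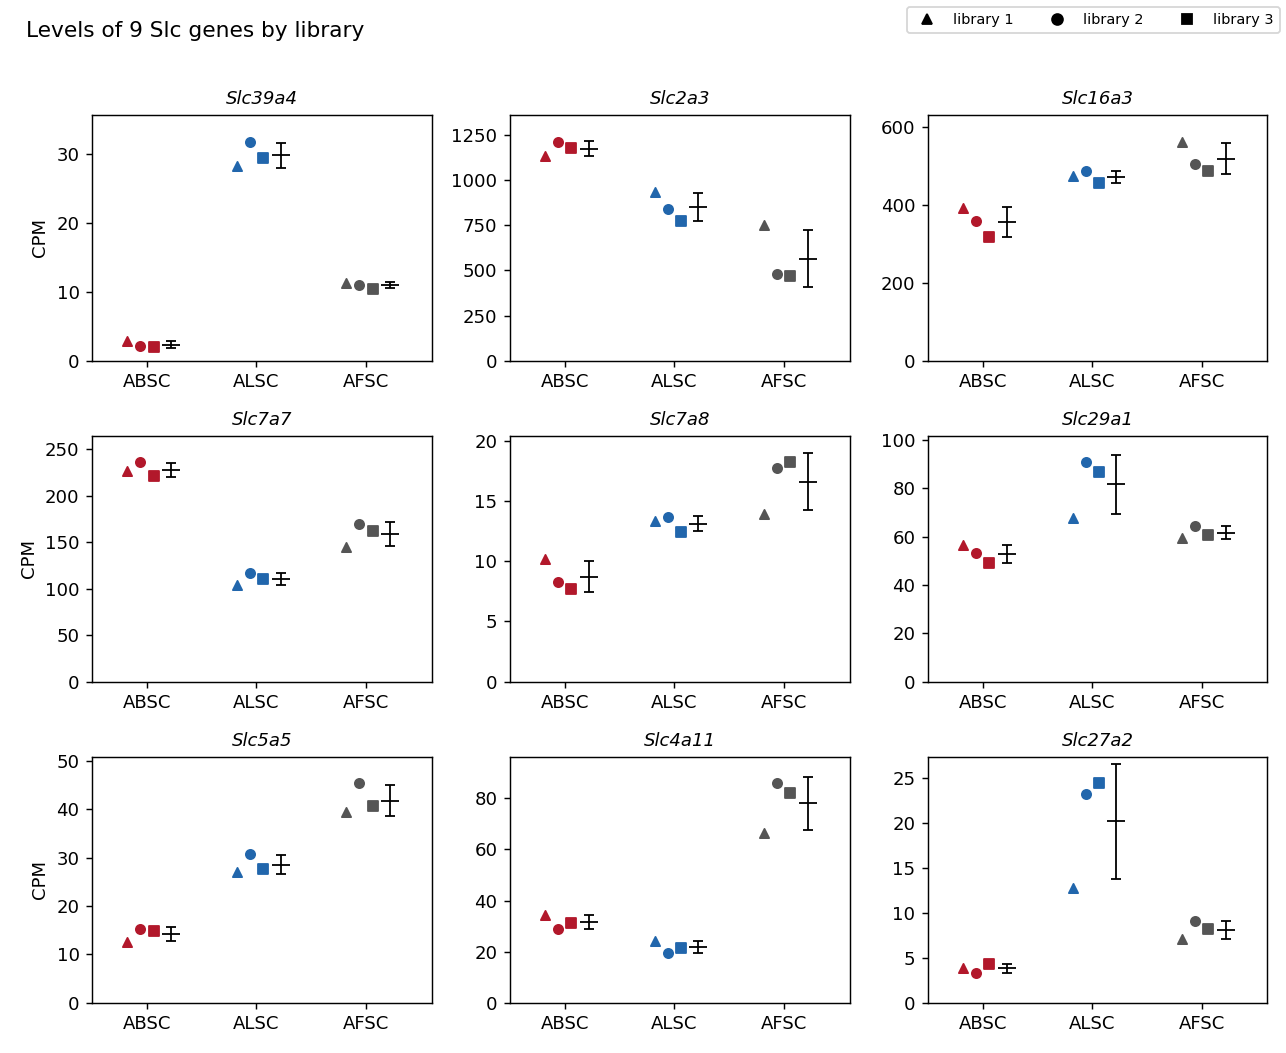
Level in CPM (linear axis from 0) of 9 members in each library of ABSC, ALSC and AFSC; symbols mark library 1, 2 or 3 and the black bar is the mean with its SD (n = 3). Slc39a4 lies near 2 CPM in ABSC, 30 in ALSC and 11 in AFSC, and Slc2a3 is highest in ABSC while Slc16a3 is lowest there.

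Of the 156 other members, 5 were called higher and 14 lower in ABSC against AFSC, 8 higher and 9 lower in ALSC against AFSC, and 13 higher and 15 lower in ABSC against ALSC. In the same order, 12.2%, 10.9% and 17.9% of the class were called, beside 7.98%, 7.04% and 11% of all genes. Slc5a5 (NIS, the sodium iodide symporter of thyroid; chr8:70882889-70892757, minus strand) had 12.6, 15.2 and 14.8 CPM in ABSC, 27, 30.7 and 27.7 CPM in ALSC, and 39.3, 45.3 and 40.6 CPM in AFSC. The groups were stepwise apart, ABSC lowest. The log2 fold change was -1.56 ± 0.11 in ABSC against AFSC (adjusted p = 2.7e-05) and -1.0 ± 0.11 in ABSC against ALSC (adjusted p = 0.00032). In ALSC against AFSC it was -0.55 ± 0.10 (adjusted p = 0.012), lost without AFSC 2, AFSC 3 or ALSC 3 at adjusted p between 0.0513 and 0.0733.

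Slc4a11, a membrane transporter known from the corneal endothelium (chr2:130684113-130697519, minus strand), had 34.4, 29 and 31.1 CPM in ABSC, 24.3, 19.6 and 21.4 CPM in ALSC, and 66.4, 85.8 and 81.9 CPM in AFSC. Both derived cell types were well below AFSC, and ALSC was lowest. The log2 fold change was -1.31 ± 0.12 in ABSC against AFSC (adjusted p = 0.00014) and -1.84 ± 0.12 in ALSC against AFSC (adjusted p = 6.1e-05). The smaller step of 0.53 ± 0.12 in ABSC against ALSC (adjusted p = 0.02) was lost without ABSC 3, ALSC 2 or ALSC 3, at adjusted p between 0.0557 and 0.068.

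Slc27a2, which takes up very long-chain fatty acids and joins them to CoA, had 3.83, 3.29 and 4.35 CPM in ABSC, 12.8, 23.3 and 24.4 CPM in ALSC, and 7.11, 9.12 and 8.18 CPM in AFSC. Its order, ALSC above AFSC above ABSC, was that of Slc39a4. The log2 fold change was -2.39 ± 0.25 in ABSC against ALSC (adjusted p = 0.00029). The change of -1.09 ± 0.25 in ABSC against AFSC (adjusted p = 0.024) was lost without ABSC 2, ABSC 3, AFSC 2 or AFSC 3 (adjusted p 0.057 to 0.106), and the change of 1.31 ± 0.23 in ALSC against AFSC (adjusted p = 0.01) without AFSC 3 (adjusted p = 0.0545). Slc45a1, a proton-coupled sugar transporter known from brain, had 1.47, 0.784 and 0.86 CPM in ABSC, 8.18, 3.71 and 2.75 CPM in ALSC, and 6.03, 5.2 and 5.97 CPM in AFSC. ABSC were lowest, by -2.45 ± 0.42 against AFSC (adjusted p = 0.0056) and -2.23 ± 0.42 against ALSC (adjusted p = 0.0081). Slc45a1 was assigned to the other members, so the counts of the glucose and lactate class leave it out.

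Slc22a3 (OCT3, an organic cation transporter), chosen after its values were seen, had the largest fall of any member in ABSC against AFSC, at 0.196, 0.105 and 0.101 CPM in ABSC, 0.551, 1.51 and 1.94 CPM in ALSC, and 1.75, 2.03 and 2.02 CPM in AFSC. ABSC 2 and ABSC 3 lie under the level of 3 counts. The fitted log2 fold changes of -3.78 ± 0.53 against AFSC (adjusted p = 0.0019) and -3.24 ± 0.55 against ALSC (adjusted p = 0.0047), both called in every alternative run, therefore rest on few reads and are not bounds. Slc35d3, of the nucleotide sugar transporter family, had 37.7, 22 and 19.3 CPM in ABSC, 14, 24.8 and 21.3 CPM in ALSC, and 56, 57.4 and 54.2 CPM in AFSC. AFSC libraries were above all others. ALSC fell by 1.48 ± 0.26 (adjusted p = 0.009), a call lost with no filter on low counts (adjusted p = 0.0638). The fall of -1.08 ± 0.25 in ABSC against AFSC (adjusted p = 0.027) was lost with the block (adjusted p = 0.11) and with no filter on low counts (adjusted p = 0.17). That call was also lost without ABSC 2, ABSC 3 or any 1 AFSC library (adjusted p 0.0651 to 0.116). Slc35d1, which carries UDP-sugars into the endoplasmic reticulum, had 23.8, 30.8 and 30.6 CPM in ABSC, 22.6, 27.1 and 26.6 CPM in ALSC, and 38.2, 42.5 and 39 CPM in AFSC. AFSC was highest here too. ALSC differed from AFSC by -0.65 ± 0.12 (adjusted p = 0.011; 0.0677 without AFSC 2 and 0.0512 without AFSC 3). ABSC differed from AFSC by -0.49 ± 0.12 (adjusted p = 0.031), lost on leaving out any 1 library other than ABSC 1 or ALSC 1 (adjusted p 0.0505 to 0.145).

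A further 4 members, picked from those named by the rule because their ALSC values were lowest, carry different cargo. Slc19a2, a thiamine transporter, had 95.6, 126 and 116 CPM in ABSC, 83.5, 93.5 and 90.7 CPM in ALSC, and 128, 147 and 144 CPM in AFSC, with a log2 fold change of -0.65 ± 0.10 in ALSC against AFSC (adjusted p = 0.0057). Slc20a1, a sodium phosphate carrier, had 185, 221 and 216 CPM in ABSC, 138, 155 and 158 CPM in ALSC, and 167, 187 and 172 CPM in AFSC, and was 0.47 ± 0.08 higher in ABSC against ALSC (adjusted p = 0.0066). The choline transporter-like Slc44a2 had 60.2, 63.2 and 57.4 CPM in ABSC, 46.7, 38.5 and 39.4 CPM in ALSC, and 48.2, 50.1 and 51.9 CPM in AFSC, and was 0.54 ± 0.09 higher in ABSC against ALSC (adjusted p = 0.0038). Slc23a1, a vitamin C transporter that overlaps Paip2, had 6.14, 10.1 and 9.46 CPM in ABSC, 2.8, 4.59 and 4.59 CPM in ALSC, and 6.03, 4.77 and 4.98 CPM in AFSC. It was 1.10 ± 0.25 higher in ABSC against ALSC (adjusted p = 0.02), a call lost without ABSC 2 (adjusted p = 0.0841) or ABSC 3 (adjusted p = 0.0721). That all ALSC libraries lay below all AFSC and ABSC libraries in these 4 genes follows from how they were picked and is not a result. The share of all genes with this order was not counted.

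The orphan carrier Slc35f5 was highest in ABSC, at 22.6, 24.6 and 22.6 CPM, against 14.5, 15.6 and 13.7 CPM in ALSC and 16.2, 15.8 and 15.6 CPM in AFSC. The rise was 0.55 ± 0.09 against AFSC (adjusted p = 0.0059) and 0.67 ± 0.10 against ALSC (adjusted p = 0.0018), without overlap between ABSC and the others. Slc8b1, the mitochondrial sodium/calcium exchanger, had 31.1, 31 and 29 CPM in ABSC, 27.8, 23 and 21.2 CPM in ALSC, and 21.8, 21.7 and 23.2 CPM in AFSC. ABSC libraries lay above all others, and ABSC exceeded AFSC by 0.45 ± 0.11 (adjusted p = 0.031), lost without ABSC 2, ABSC 3 or any 1 AFSC library (adjusted p 0.0673 to 0.122).

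Some mitochondrial carriers are among the named members. Slc25a12, the aspartate/glutamate carrier, had 7.27, 6.54 and 8.85 CPM in ABSC, 12.1, 13.3 and 11.7 CPM in ALSC, and 10.5, 12 and 13.3 CPM in AFSC. ABSC were lowest, by -0.66 ± 0.15 against AFSC (adjusted p = 0.024; 0.0899 to 0.114 without ABSC 2, AFSC 2 or AFSC 3) and by -0.71 ± 0.15 against ALSC (adjusted p = 0.014; 0.0715 without ABSC 2 and 0.0558 without ALSC 2). Slc25a30 had 23.5, 18.8 and 18.2 CPM in ABSC, 34.2, 29.9 and 31.2 CPM in ALSC, and 24.7, 22.7 and 23.3 CPM in AFSC. ALSC were highest, and ABSC differed from ALSC by -0.66 ± 0.11 (adjusted p = 0.0054). The change of 0.43 ± 0.11 in ALSC against AFSC (adjusted p = 0.049) was lost on leaving out any 1 library other than ABSC 1 (adjusted p 0.0587 to 0.183). Slc25a5 had 688, 707 and 711 CPM in ABSC, 543, 608 and 614 CPM in ALSC, and 705, 693 and 729 CPM in AFSC. ALSC were lowest, by -0.27 ± 0.06 against AFSC (adjusted p = 0.02; 0.0511 to 0.101 without any 1 AFSC library), and ABSC exceeded ALSC by 0.25 ± 0.06 (adjusted p = 0.017; 0.0711 without ABSC 2 and 0.0662 without ABSC 3). Slc25a3 (444 to 658 CPM) was called in no comparison. Slc12a7, a potassium chloride cotransporter, had 44, 46.2 and 45.3 CPM in ABSC, 54.3, 60.9 and 51.8 CPM in ALSC, and 44.2, 41.3 and 39.7 CPM in AFSC. ALSC were highest, by 0.41 ± 0.08 against AFSC (adjusted p = 0.015; 0.0575 to 0.0854 without AFSC 2, AFSC 3 or ALSC 2), and ABSC differed from ALSC by -0.30 ± 0.08 (adjusted p = 0.04; 0.0589 to 0.135 without any 1 ABSC library, AFSC 2, AFSC 3, ALSC 1 or ALSC 2).

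The offset of the libraries numbered 1 was one-sided in the glucose and lactate class. Library 1 exceeded the mean of libraries 2 and 3 (log2 CPM) in every cell type in 11 of 15 members of that class. It lay below that mean in every cell type in 1, against 74 above and 53 below of all 234 members (31.6% and 22.6%). Over all genes tested the shares were 29.2% and 26.9%. The counts were 10 higher and 6 lower of 31 amino acid members, 6 and 9 of 26 zinc and iron members, 1 and 1 of 6 nucleoside members, and 46 and 36 of 156 other members, and no difference between classes was tested. The glycine transporter Slc6a9 had 11.6, 3.71 and 3.74 CPM in ABSC, 11.6, 3.71 and 3.46 CPM in ALSC, and 5.67, 3.69 and 2.54 CPM in AFSC. Library 1 was highest each time, by 1.62, 1.66 and 0.87 on the log2 scale in ABSC, ALSC and AFSC. Slc7a5 was offset by 0.75, 0.64 and 0.34, and Slc2a1 by 0.25, 0.50 and 0.76, in the same order of cell types.

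A further 4 members, Slc2a8, the sugar carrier Slc50a1, the glutamine carrier Slc38a3 and the glucose-6-phosphate carrier Slc37a4, were chosen after their values were seen. Their offsets ran from 0.72 to 1.06 for Slc2a8, from 0.52 to 0.72 for Slc50a1, from 0.64 to 1.22 for Slc38a3 and from 0.50 to 0.79 for Slc37a4. These are descriptions of 3 libraries, without a test, and what the number stands for is not given in the sources used here. Its part in these values was not tested.

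**Figure D4:**
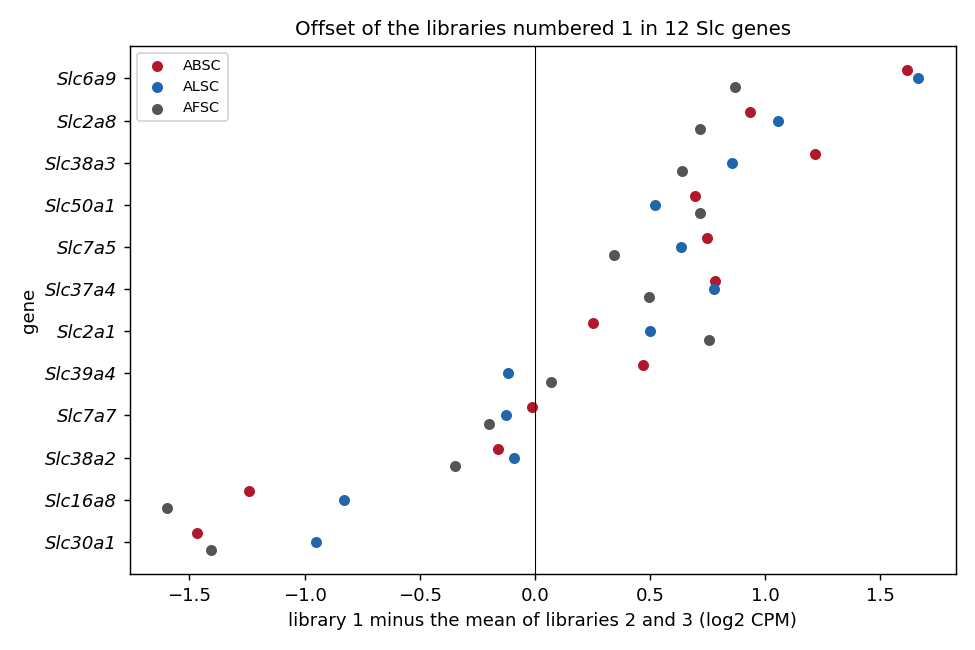
Level of library 1 minus the mean of libraries 2 and 3, in log2 CPM, for 12 members in ABSC, ALSC and AFSC, 1 point per cell type. The topmost 7 genes lie above 0 in every cell type, Slc16a8 and Slc30a1 lie far below 0 in every cell type, and Slc39a4 and Slc7a7 stay within 0.5 of it.

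Genes that work beside these transporters were given as a list of 30, of which 28 were tested. In ABSC against AFSC 4 were called higher and 3 lower, beside 3.98% and 4% of all genes. In ALSC against AFSC the calls were 2 higher and 1 lower, beside 3.54% and 3.5% of all genes. In ABSC against ALSC they were 5 higher and 4 lower, beside 5.41% and 5.56% of all genes. The iron storage chain Fth1 had 332, 333 and 331 CPM in ABSC, 304, 291 and 285 CPM in ALSC, and 278, 268 and 275 CPM in AFSC. ABSC were highest, by 0.28 ± 0.05 against AFSC (adjusted p = 0.006), and Ftl1, the other ferritin chain, rose by 0.41 ± 0.07 (adjusted p = 0.004), as did the iron oxidase Heph by 0.81 ± 0.12 (adjusted p = 0.0031). Steap3 rose by 1.06 ± 0.23 (adjusted p = 0.021), a call lost without ABSC 2, ABSC 3 or any 1 AFSC library. Steap3 rose likewise in ALSC against AFSC, by 1.08 ± 0.23 (adjusted p = 0.022), a call lost without ALSC 2, ALSC 3 or any 1 AFSC library. Its difference of -0.03 in ABSC against ALSC was not called. The iron genes Tfrc (-0.02), Ireb2 (0.00) and Aco1 (0.06) on the list were not called in ABSC against AFSC. The lactate dehydrogenase gene Ldhb had 74.4, 68.7 and 70.9 CPM in ABSC, 107, 89.1 and 88.2 CPM in ALSC, and 106, 104 and 108 CPM in AFSC, lowest in ABSC as Slc16a3 was, by -0.57 ± 0.08 against AFSC (adjusted p = 0.0019). Among nucleoside enzymes, adenosine kinase Adk fell by 0.58 ± 0.09 in ABSC against AFSC (adjusted p = 0.0038), and adenosine deaminase Ada rose by 1.00 ± 0.12 in ALSC against AFSC (adjusted p = 0.0012). Pnp, also a nucleoside enzyme, was higher in ABSC against ALSC, by 0.42 ± 0.08 (adjusted p = 0.0071), where the called nucleoside transporters were lower. Tk1 and Dck were called in no comparison. Each of these calls of Fth1, Ftl1, Heph, Ldhb, Adk, Ada and Pnp held when any 1 library was left out.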

How the data were processed

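RNA from 9 libraries, 3 each of ABSC, ALSC and AFSC, was sequenced; per the labels' protocols, libraries were made with an unstranded NEBNext Ultra kit. The deposited table holds raw counts of reads. The tools were HISAT2 2.0.5 for alignment and featureCounts 1.5.0-p3 for counting, per the submitters' processing notes. These notes give the build as mm9, but of the 234 members, all present in GENCODE M21 (GRCm38), 225 have the same coordinates there, so coordinates are read as GRCm38. Gene length is another value of the deposited table. The 346 rows without an Ensembl ID or symbol held 0.208% to 0.227% of the counts and were left out.

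The main test was that of edgeR 4.0.16 under R 4.3.3: filterByExpr (minimum count 10, minimum total 15), TMM factors (0.963 to 1.06), 1 quasi-likelihood fit of all 9 libraries by group with 6 residual degrees of freedom, 2-sided F tests and Benjamini-Hochberg adjustment over 16178 genes. Levels are TMM-scaled CPM. SE is the absolute log2 fold change over the square root of F. The pooled biological coefficient of variation was 0.147. The procedure was tested on simulated counts with the same spread for every gene and no offset between library numbers. That simulation cannot show how the procedure behaves with such an offset.

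The labels number the libraries 1 to 3. Deviations from group means correlated between libraries of the same number. The values were 0.464 to 0.554 for number 1, 0.197 to 0.287 for number 2 and 0.224 to 0.356 for number 3. All were above 0.1, so a fit with the number as a replicate block (4 residual degrees of freedom) was run beside the main one. Libraries 2 and 3 of different cell types correlated much the same across numbers, at 0.221 to 0.273. The values therefore set number 1 apart but do not clearly separate number 2 from number 3. No 2 libraries of a group agreed within sampling noise (chi-square per degree of freedom 2.08 to 25.3).

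Members, substrate classes, lists and the naming rule were chosen with earlier results of these data known. The rule names 20 key genes, up to 5 called members per class and comparison with the largest changes, the 6 largest rises and 6 largest falls per comparison at 5 CPM or more, and the 5 highest and 5 lowest members per kilobase. Slc28a3 and Slc43a3 of the key genes were below the level rule. Of the members, 48 overlap another tested gene. Alternatives were DESeq2 1.42.0, other scalings and filters, 2-group fits, a threshold of 0.01, the block, and leaving libraries out. Losses given gene by gene are those on leaving out 1 library, unless another setting is named. Some of these calls were also lost with another scaling or filter or in a 2-group fit. Among them were Slc38a1 and Slc29a1 in ALSC against AFSC, and Slc7a11 and Slc8b1 in ABSC against AFSC. The gene excluded by the membership rule and a few genes that the naming rule selects are not reported here, though they count among the totals.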

Additional observations from a re-analysis of the deposited data

How the results depend on the processing

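In these data the number of called members depended on the settings, and the directions of called genes did not: of 62 called changes of genes that the naming rule selects or that were added, 0 reversed in any alternative, 33 kept their call in all of them, and 35 kept it whichever 1 library was left out. At an adjusted p under 0.01, 15 members were called in ABSC against AFSC (3.62% of all genes), 5 in ALSC against AFSC (2.09%), 18 in ABSC against ALSC (4.47%) and 26 for any difference (6.23%). The fit with the replicate block called 64, 64, 90 and 111 in the same order, and the fit without the 3 libraries numbered 1 called 90, 83, 106 and 137. Fitting 2 groups alone called 24 in ABSC against ALSC (6.69% of all genes). Leaving out 1 library gave 16 to 39 in ABSC against AFSC (4.03% to 10.4% of all genes), 6 to 29 in ALSC against AFSC (2.08% to 9.19%), 22 to 50 in ABSC against ALSC (5.09% to 14.1%) and 30 to 58 for any difference (8.39% to 18.4%). The other scalings, filters and DESeq2 stayed within 1.5 times of the main counts. Over these 62 and 4 uncalled changes whose log2 values are printed, 1188 values under the alternatives gave 1000 on the same side of the threshold, 172 that lost the call, 16 that gained it and 0 of opposite sign. The block changed the call of 3 of these 66. A further 93 uncalled changes of named genes, whose fold changes are not printed, gave 1673 values, of which 83 changed sign (none above 0.75 in size on the log2 scale) and 81 passed the threshold. The causes were not tested.

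Depth limits the lowest members: 3 counts equal 0.138 to 0.157 CPM, so Slc22a3, Slc28a2 and Slc45a1 in ABSC rest on few reads.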
